A study of Homo sapiens with 8 samples.

Results

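The interferon-stimulated and antigen presentation genes are a named list of 50 human genes, taken from 34792 genes summed from the transcripts of 8 RNA libraries. They were chosen by symbol: 5 guanylate-binding proteins, 15 genes of the IFIT, IFI and ISG15 group, 6 MX and OAS effectors, 5 RNA sensors and double-stranded RNA enzymes, 4 transcription factors, 3 IFITM proteins, 5 genes of the SAMD9 and PARP groups and 7 genes of antigen presentation. The cells were A673, an Ewing sarcoma line that carries the EWSR1-FLI1 fusion. Every culture, control cultures included, expressed the tetracycline repressor (A673/TR, itself grown from 1 clone) and carried an shRNA against FEZF1 under an H1 promoter that doxycycline releases. The repressor was brought in by lentivirus, and the shRNA as lentiviral vector DNA by electroporation. One control culture, left untreated, and 1 culture given doxycycline at 1 µg/mL for 72 h came from each of 4 origins, the polyclonal (bulk) A673/TR/shFEZF1 population and clones c3, c5 and c6. The question for these genes was whether expressing a hairpin RNA is accompanied by an interferon response, or whether GBP2 moved without the others. No library analysed here came from cells given doxycycline without the FEZF1 hairpin, so doxycycline, the presence of a hairpin and the lower FEZF1 cannot be told apart.

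Interferons are secreted proteins that cells release when sensors such as RIG-I (DDX58) and MDA5 (IFIH1) meet viral or other double-stranded RNA. Type I interferon acts through a complex with STAT2 and IRF9 that binds the interferon-stimulated response element in promoters, and interferon gamma acts at gamma-activated sites and through IRF1. The genes switched on include antiviral effectors (IFIT, MX and OAS proteins), guanylate-binding GTPases, and the proteasome subunits, transporters and MHC class I molecules that present peptides to T cells.

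FEZF1, the gene the shRNA targets, was lower in 4 of 4 pairs (edgeR, log2 fold change -0.81, adjusted p = 0.00594). All 7 markers of Ewing sarcoma cells were measured above 1 CPM, and their summed level was 3962 to 5600 CPM in control and 3949 to 5754 CPM in doxycycline cultures, with 2 of them called higher and 1 lower. Of 7 immune cell markers, 6 were under 1 CPM in every library, CD68 being the exception, and CD3E had no read. Depth was 26719886 to 42422421 assigned reads per library. Values are CPM (reads as a share of the library, after TMM scaling), and those of the 4 origins are always given in the order polyclonal, c3, c5, c6. A gene was called where edgeR's quasi-likelihood test, with origin as a block, gave a Benjamini-Hochberg adjusted p under 0.05 over the 15993 genes tested. Each origin gave 1 culture per treatment, so these p-values measure how alike the change was in the 4 origins.

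Of the 50 genes, 45 passed the filter on low counts and were tested, and ISG20, MX2, OASL, DHX58 and PSMB9 did not pass. The sums of ISG20 and DHX58 held 10.2% and 13.1% of the reads implied by the authors' mean, so their levels here are not their full levels. GBP2, IFIT1, IFI44, IFI44L and STAT2 rose with doxycycline, and PARP14, PARP9 and PSMB8 fell. In bulk RNA a lower level in each cell and fewer cells that express a gene cannot be told apart. The 8 called genes were 17.8% of the 45, beside 7.63% of all genes tested. The 5 that rose were 11.1% (3.73% of all genes) and the 3 that fell were 6.67% (3.91% of all genes). GBP2 changed by 1.21 on the log2 scale, and the other 4 that rose by 0.43 to 0.55. Fold changes lay above 0 in 23 and below 0 in 22 of the 45. Their median was 0.05 on the log2 scale, or 0.02 without GBP2, and that of all genes was 0.0042.

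Of the 45 genes, 6 (13.3%) were higher in 4 of 4 pairs, beside 17.4% of all genes, and 10 (22.2%) were lower in 4 of 4 pairs, beside 15.9% of all genes. The control and doxycycline cultures did not overlap for GBP2, PARP9 and DTX3L, 6.67% of the members beside 4.94% of all genes. Of 16 genes picked as representatives of the response, 15 were tested and 2, IFIT1 and STAT2, were called, beside 7.63% of all genes.

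The calls depended on the pairing by origin. Without the block, edgeR called none of the 45 (0.00625% of all genes, that is 1 gene). In that fit 6 of the 45 had an unadjusted p under 0.05, beside 1155 of the 15993 genes tested. DESeq2 without the block called GBP2 and PARP9, 2 of 44 (4.55%, beside 1.39% of all genes). With the block, DESeq2 called 11 of 42 (26.2%, beside 14.2% of all genes), the 8 above with B2M, DTX3L and IRF1. Leaving out the pair of clone c5 or of clone c6 gave 1 called member, GBP2 in both cases, beside 1.09% and 1.4% of all genes. Without the polyclonal pair 6 members were called, beside 699 of all genes. The share of all genes tested in that fit is not given, so this count is not read as a result about the members. GBP2 and IFI44 were higher there, and DTX3L, OAS3, PARP14 and PSMB8 lower. Leaving out c3 gave GBP2, IFI44, PARP14 and, in addition, GBP1 (2.89% of all genes), and using curated transcripts only gave GBP2, IFI44 and PARP14 (3.29% of all genes). Over the 10 alternatives GBP2 was called in 9, IFI44 and PARP14 in 6, PARP9 and PSMB8 in 4, and IFIT1, IFI44L and STAT2 in 3.

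**Figure D1:**
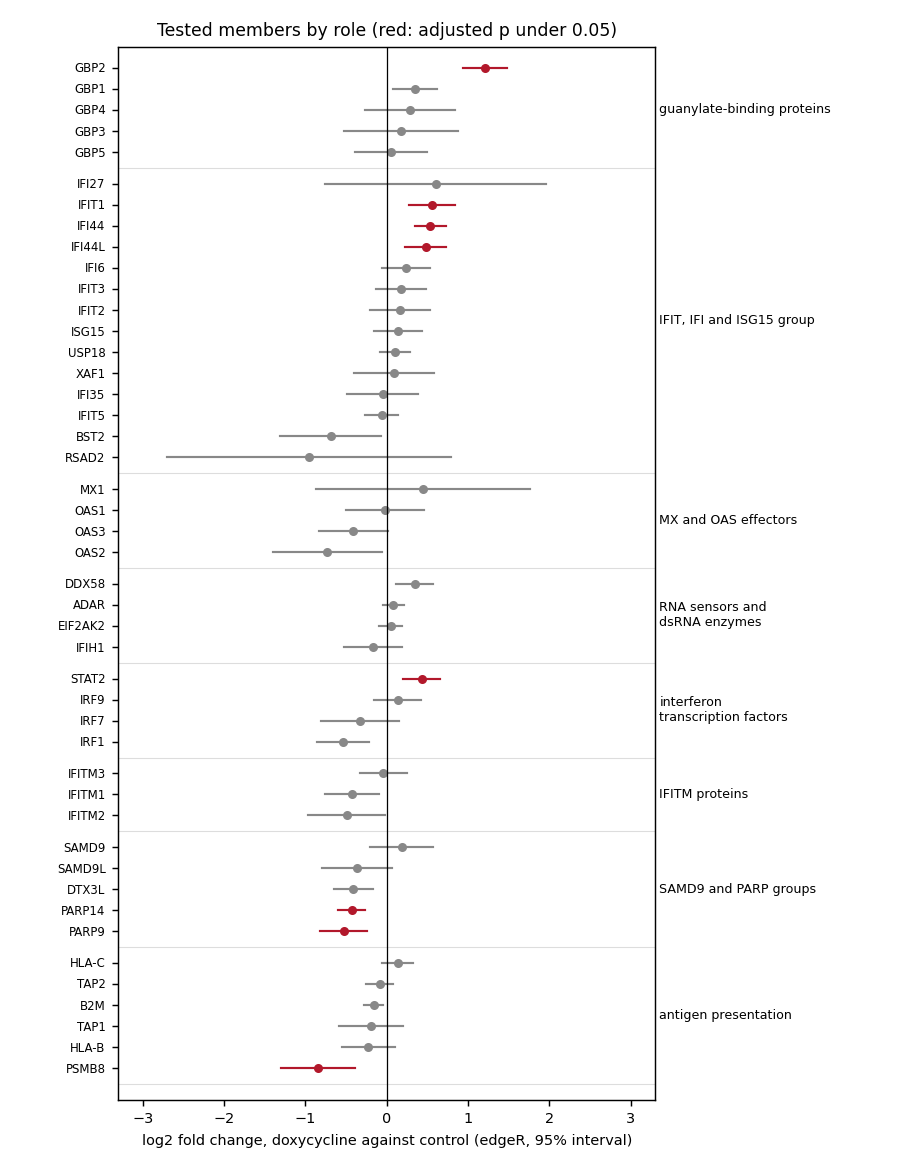
Each row is 1 of the 45 tested genes, grouped by role; the point is the log2 fold change of doxycycline against control and the line its 95% interval from edgeR with origin as a block, in red where the adjusted p is under 0.05. GBP2 stands at 1.21, the other called genes lie between -0.84 and 0.55, and the guanylate-binding proteins other than GBP2 lie between 0.05 and 0.34.

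**Figure D2:**
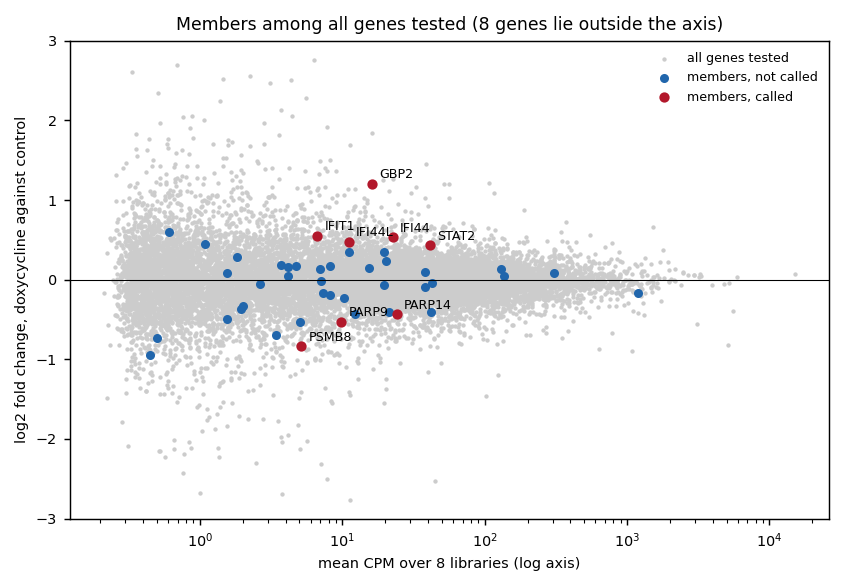
The horizontal axis is the mean CPM over the 8 libraries on a log scale and the vertical axis the log2 fold change of doxycycline against control; grey points are all genes tested, blue points the members not called and red points the 8 called members. GBP2 at 1.21 lies near the upper edge of the genes of like abundance, most members lie within their cloud, and 8 genes fall outside the axis.

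The response element letters were searched in the promoter windows of the list, since both the genes that rose and those that fell are textbook interferon targets. RefSeq windows (GRCh38.p14, 250 bases before to 50 after the start) matched 40 of the 50 genes. The other 10 were GBP2, GBP5, IFIT2, USP18, MX2, OAS2, OASL, DHX58, IRF7 and IFITM2. The core of the interferon-stimulated response element, GAAANNGAAA on either strand, was in a window of 28 of the 40 (70%), beside 4.38% of 27305 genes with a window. It was in 3 of 4 genes called higher, in 3 of 3 called lower and in 21 of 31 tested and not called (67.7%). The gamma-activated site TTCNNNGAA, on either strand, was in 12 of the 40 (30%), beside 9.38% of all genes with a window. The genes were listed as interferon targets, so an excess of either element over all genes follows from that choice. It is no result about these cultures. The matches are shown for genes that rose (IFIT1, IFI44, IFI44L), genes that fell (PARP9, PARP14, PSMB8) and 2 representatives that were not called (ISG15, IFIT3). Each line gives 40 bases of the gene's own strand, 5′ to 3′, with the match in capitals.
IFIT1 (chr10:89392492-89392531, plus strand): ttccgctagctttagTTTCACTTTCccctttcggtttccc
IFI44 (chr1:78649756-78649795, plus strand): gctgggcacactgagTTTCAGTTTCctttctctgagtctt
IFI44L (chr1:78620269-78620308, plus strand): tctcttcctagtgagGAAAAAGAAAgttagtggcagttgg
PARP9 (chr3:122564317-122564356, minus strand): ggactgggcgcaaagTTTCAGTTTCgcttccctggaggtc
PARP14 (chr3:122680795-122680834, plus strand): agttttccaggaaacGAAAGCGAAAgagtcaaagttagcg
PSMB8 (chr6:32844027-32844066, minus strand): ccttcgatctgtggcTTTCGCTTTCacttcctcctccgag
ISG15 (chr1:1013369-1013408, plus strand): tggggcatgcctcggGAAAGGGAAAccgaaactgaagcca
IFIT3 (chr10:89327826-89327865, plus strand): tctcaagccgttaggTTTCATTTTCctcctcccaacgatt
More than 1 match was held both by genes that rose and by genes not called. IFIT1 held a 2nd 13 bases downstream, and IFI44L held the same 40 bases again 91 bases downstream. ISG15 held 2 matches, and IFIT3 held 4, spread over more than 1 window. PARP9 and DTX3L are transcribed in opposite directions, and the match shown for PARP9 was also the match in the window of DTX3L, read on the other strand. A match is a string of letters in the window, and no binding was measured.

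Guanylate-binding proteins are interferon-induced GTPases that gather on pathogen vacuoles and bacteria, and the 5 listed genes lie in 1 cluster on chromosome 1 (GRCh38.p14) between 89006680 and 89272860. GBP2 (89106132 to 89126114) was at 10.8, 7.97, 10.99 and 9.25 CPM in the control cultures. With doxycycline it was at 19.5, 18.02, 27.1 and 26.4 CPM. Every doxycycline culture lay above every control culture, by 1.80, 2.26, 2.46 and 2.86 times in the 4 pairs. The means were 9.75 ± 1.42 CPM without and 22.8 ± 4.67 CPM with doxycycline (SD, n = 4 each), and the exact permutation test over the 8 libraries gave a 2-sided p of 0.0286, the smallest that 4 against 4 allows. The edgeR log2 fold change was 1.21 (SE 0.118, 95% interval 0.93 to 1.48, adjusted p = 0.00594). The alternative that did not call it, edgeR without the block, gave an adjusted p of 0.125. GBP2 is on the list the study chose from these libraries. Its call, its rank among the members and its interval beside theirs are therefore not independent evidence. All its reads, 230 to 815 per library, were assigned to 1 transcript of 4088 bases. Of the other 44 tested members, 42 had a 95% interval whose upper end lay below the lower end of GBP2's, IFI27 and MX1 being the exceptions.

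The other guanylate-binding genes had fold changes above 0 and none was called. GBP1 was at 14.8, 19.00, 22.3 and 13.3 CPM in control and 20.2, 18.1, 29.7 and 20.02 CPM in doxycycline cultures, higher in 3 pairs and slightly lower in c3 (log2 fold change 0.34, adjusted p = 0.116). Without the c3 pair GBP1 was called (log2 fold change 0.48, adjusted p = 0.0484). GBP3 was at 2.76, 10.4, 2.58 and 2.73 CPM without and 2.98, 7.56, 6.84 and 2.19 CPM with doxycycline, so that c3 stood above the other controls and the c5 doxycycline culture was 2.64 times its control (log2 fold change 0.17, adjusted p = 0.781). GBP4 was at 1.95, 0.756, 2.98 and 1.17 CPM without and 1.84, 1.28, 2.69 and 1.98 CPM with doxycycline, higher in c3 and c6 only (log2 fold change 0.29, adjusted p = 0.517). For GBP5 the values were 4.83, 2.87, 5.48 and 3.34 CPM and 5.10, 3.37, 3.85 and 4.46 CPM, the doxycycline cultures lying within the range of the controls (log2 fold change 0.05, adjusted p = 0.904). Neighbouring guanylate-binding genes are alike in sequence, and the share of reads that the authors' quantification gave to each is uncertain to that extent. Ranked by fold change within each pair, GBP2 was first of 45 in the polyclonal population and second in each clone, behind IFI27 in c3 (no read in that control), GBP3 in c5 and MX1 in c6 (3 reads in that control).

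**Figure D3:**
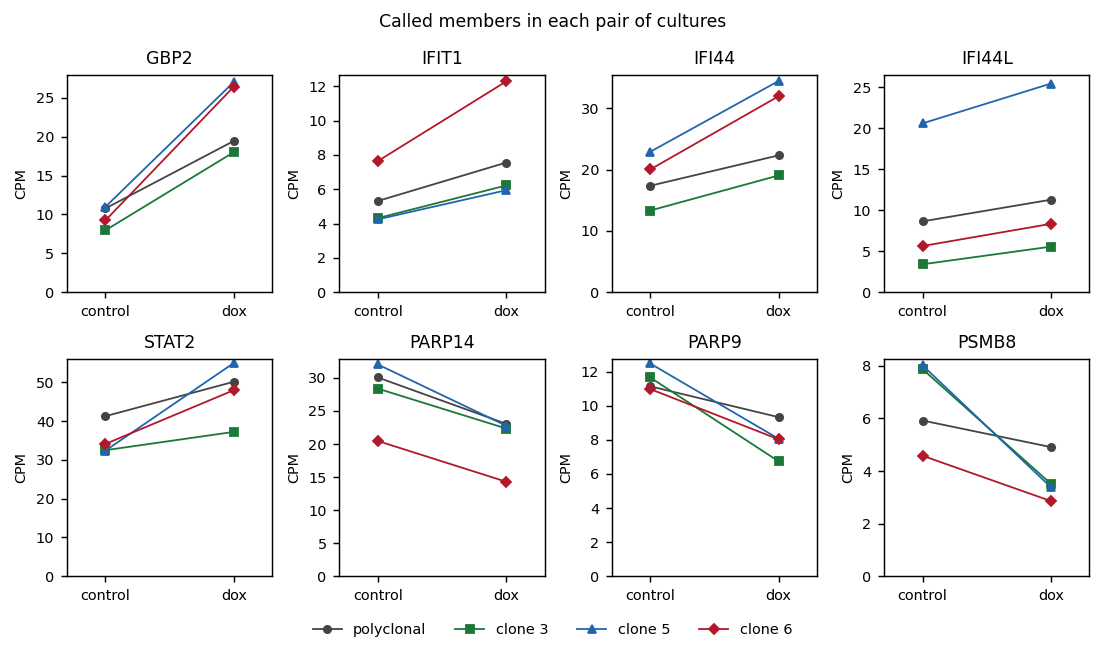
Each panel is 1 of the 8 called genes, with CPM on the vertical axis from 0 and lines joining the control and doxycycline (dox) culture of each origin. In every panel the 4 lines run the same way, and for GBP2 and PARP9 the control and doxycycline cultures do not overlap.

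In the IFIT, IFI and ISG15 group, 3 of 14 tested genes rose and none fell. IFIT1, which binds viral RNA lacking cap methylation, was at 5.32, 4.32, 4.25 and 7.64 CPM in control and 7.55, 6.22, 5.94 and 12.3 CPM in doxycycline cultures. It rose by 1.42, 1.44, 1.40 and 1.61 times in the pairs (log2 fold change 0.55, SE 0.121, adjusted p = 0.0384), while c6 lay above the others in both groups. IFI44, a cytoplasmic protein induced by type I interferon, was at 17.4, 13.3, 22.9 and 20.02 CPM without and 22.3, 19.04, 34.5 and 31.96 CPM with doxycycline (log2 fold change 0.54, SE 0.0808, adjusted p = 0.0136). The order of the origins was the same in both groups, c5 highest and c3 lowest. Its neighbour IFI44L was at 8.63, 3.40, 20.6 and 5.63 CPM and 11.3, 5.55, 25.4 and 8.33 CPM (log2 fold change 0.48, SE 0.110, adjusted p = 0.0427), so the difference between origins was larger than the change with doxycycline. For IFI44 the sums held 74.3% of the reads implied by the authors' mean. The curated coding transcript of 1682 bases held 68.7% of its summed reads in control and 65.5% in doxycycline cultures.

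IFIT2, IFIT3 and IFIT5, the neighbours of IFIT1 on chromosome 10, were not called, nor were ISG15 and IFI6. IFIT3, a partner of IFIT1, was at 6.76, 8.57, 7.55 and 7.52 CPM in control and 6.32, 9.24, 8.56 and 10.6 CPM in doxycycline cultures (log2 fold change 0.17, adjusted p = 0.482). ISG15, a ubiquitin-like modifier, was at 12.9, 15.8, 15.1 and 14.8 CPM and 16.6, 14.7, 13.5 and 20.3 CPM, higher in the polyclonal population and c6 and lower in c3 and c5 (log2 fold change 0.14, adjusted p = 0.551). IFI6, a membrane protein with antiviral activity, was at 16.8, 20.8, 17.3 and 18.5 CPM and 19.6, 18.9, 19.9 and 29.2 CPM, where the doxycycline culture of c6 stood above all others (log2 fold change 0.23, adjusted p = 0.297). The other 8 tested genes of the group (IFIT2, IFIT5, IFI27, IFI35, USP18, XAF1, RSAD2, BST2) had log2 fold changes from -0.95 (RSAD2, whose sums held 54.8% of the reads implied by the authors' mean) to 0.60 (IFI27). BST2, which tethers budding virus particles, had the smallest p of these (log2 fold change -0.69, adjusted p = 0.162).

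Of the MX and OAS effectors, none of 4 tested genes was called. MX1, a dynamin-like GTPase that blocks viral replication, was at 1.47, 0.725, 1.34 and 0.121 CPM in control and 1.97, 0.378, 1.13 and 1.51 CPM in doxycycline cultures, where the c6 control was the lowest library with 3 reads (log2 fold change 0.44, adjusted p = 0.688). OAS1, which makes 2-5A on binding double-stranded RNA, was at 6.73, 5.32, 7.29 and 8.12 CPM and 9.61, 4.33, 4.61 and 10.2 CPM, higher in the polyclonal population and c6 and lower in c3 and c5 (log2 fold change -0.02, adjusted p = 0.973). OAS3 and OAS2, of the same enzyme family, had log2 fold changes of -0.41 and -0.73. OAS2 was lower in 4 of 4 pairs and OAS3 in 3 of 4, and OAS3 sums held 67.2% of the reads that the authors' mean implies. OAS3 was higher in the polyclonal pair, and without that pair it was called lower.

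The sensors and double-stranded RNA enzymes had 4 tested genes and none called. DDX58 (RIG-I, present symbol RIGI), which senses short double-stranded RNA with a 5′ triphosphate, was at 8.68, 12.7, 8.60 and 8.93 CPM in control cultures. With doxycycline it was at 10.2, 16.4, 10.8 and 12.3 CPM, higher in 4 of 4 pairs (log2 fold change 0.35, adjusted p = 0.0736). IFIH1 (MDA5), which senses long double-stranded RNA, was at 8.76, 4.98, 10.7 and 6.39 CPM and 10.1, 3.84, 7.50 and 6.39 CPM, higher in the polyclonal population, lower in c3 and c5 and level in c6 (log2 fold change -0.17, adjusted p = 0.565). EIF2AK2 (PKR), a kinase that stops translation on binding double-stranded RNA, had a 95% interval of -0.09 to 0.19 on the log2 scale. ADAR, which deaminates adenosines in double-stranded RNA, had an interval of -0.05 to 0.21. Of 10 ADAR transcripts, 1 of 6610 bases, which encodes an interferon-inducible p150 form, was at 35.8, 25.6, 14.99 and 20.7 CPM of assigned reads in control and 17.9, 49.0, 71.7 and 54.7 in doxycycline cultures. It was lower in the polyclonal population and higher in the 3 clones. A transcript of 6663 bases averaged 9.99 ± 4.72 and 19.6 ± 7.30 CPM of assigned reads (SD, n = 4 each) and was higher in 4 of 4 pairs. Which form the other transcripts encode was not examined, so whether the p150 form rose or fell was not tested. The most abundant, of 6459 bases, was at 150.5, 189, 160.1 and 158 and at 167, 171, 127 and 156 CPM of assigned reads, lower in 3 of 4 pairs. A transcript of 6532 bases averaged 33.0 ± 5.62 and 22.9 ± 14.2 CPM (SD, n = 4 each) and was also lower in 3 of 4. Another of the same length averaged 22.9 ± 15.1 and 24.7 ± 10.5 CPM (SD, n = 4 each), higher in 2 pairs and lower in 2. ADAR sums held 69.0% of the reads implied by the authors' mean, and transcripts of a gene share most of their reads, so these transcript values are given with no test.

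Among the 4 transcription factors, STAT2 rose. STAT2, a partner of IRF9 in the type I interferon complex, was at 41.3, 32.5, 32.4 and 34.1 CPM in control and 50.2, 37.2, 55.00 and 47.99 CPM in doxycycline cultures (log2 fold change 0.43, SE 0.0983, adjusted p = 0.0415). It was higher in 4 of 4 pairs, and the highest control lay above the lowest doxycycline culture. Its coding transcript of 4405 bases was at 27.2, 19.8, 15.9 and 25.4 CPM of assigned reads without and 36.5, 28.2, 39.8 and 40.9 with doxycycline, while that of 4393 bases was lower in 4 of 4 pairs. The STAT2 sums held 74.4% of the reads implied by the authors' mean. IRF9 was at 5.90, 8.57, 7.22 and 5.03 CPM and 7.12, 8.22, 7.57 and 6.06 CPM (log2 fold change 0.13, adjusted p = 0.569). IRF1, a factor that interferon gamma induces, was at 5.52, 8.98, 4.39 and 4.83 CPM in control and 3.90, 6.80, 2.72 and 3.24 CPM in doxycycline cultures. It was lower in 4 of 4 pairs and just missed the threshold in edgeR (log2 fold change -0.54, adjusted p = 0.056; DESeq2 with the block, adjusted p = 0.0464). IRF7, with 77.6% of the implied reads in its sums, had a log2 fold change of -0.32.

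None of the 3 IFITM genes, whose products block virus entry, was called, and all had fold changes below 0. IFITM1 and IFITM2 were lower in 4 of 4 pairs (log2 fold changes -0.43 and -0.49), and IFITM3 in 1 of 4 (-0.04). IFITM1 was nearly level in the polyclonal pair, at 15.67 CPM in control and 15.56 CPM with doxycycline. The 3 genes are close in sequence, and reads can be split between them.

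Of the SAMD9 and PARP groups, 2 of 5 tested genes fell and none rose. PARP14, an ADP-ribosyl transferase, was at 30.1, 28.4, 32.04 and 20.5 CPM in control and 23.1, 22.4, 22.8 and 14.3 CPM in doxycycline cultures (log2 fold change -0.43, SE 0.0726, adjusted p = 0.0181). Within both groups c6 was lowest, and the 3 other origins fell to nearly the same level. PARP9, which acts in a complex with DTX3L, was at 11.1, 11.7, 12.5 and 10.98 CPM without and 9.33, 6.74, 8.07 and 8.03 CPM with doxycycline (log2 fold change -0.53, SE 0.123, adjusted p = 0.0433). All control cultures lay above all doxycycline cultures. That alone fixes the 2-sided p of the exact permutation test, which ignores the pairs, at 0.0286, the smallest that 4 against 4 allows. DTX3L, the ubiquitin ligase of that complex, named after its values were seen, was at 22.2, 28.7, 21.9 and 24.00 CPM and 21.5, 19.7, 14.8 and 17.1 CPM, did not overlap either, and missed the threshold in edgeR (log2 fold change -0.41, adjusted p = 0.0558; DESeq2 with the block, adjusted p = 0.018). SAMD9 and SAMD9L, restriction factors on chromosome 7, had log2 fold changes of 0.18 and -0.36.

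The antigen presentation genes had 6 tested members, of which PSMB8 fell and none rose. PSMB8, a catalytic subunit of the immunoproteasome, was at 5.92, 7.88, 8.02 and 4.58 CPM in control and 4.91, 3.52, 3.39 and 2.86 CPM in doxycycline cultures (log2 fold change -0.84, SE 0.196, adjusted p = 0.044). The fall was largest in c3 and c5 and small in the polyclonal population, whose doxycycline culture lay above the c6 control, and both of its transcripts were lower in 4 of 4 pairs. PSMB9, a further immunoproteasome subunit, was below the filter at 0.405, 0.630, 0.508 and 0.201 CPM and 0.276, 0.203, 0.0664 and 0.210 CPM. TAP1, the peptide transporter subunit encoded between PSMB8 and PSMB9 on chromosome 6, was at 8.63, 11.6, 8.60 and 5.95 CPM and 10.5, 7.53, 6.44 and 5.93 CPM, higher in the polyclonal population and lower in c3 and c5 (log2 fold change -0.19, adjusted p = 0.537). TAP2 had a log2 fold change of -0.09.

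HLA-B, HLA-C and B2M, chains of MHC class I molecules, were not called. HLA-B was at 9.14, 21.1, 8.53 and 6.63 CPM in control and 9.46, 14.8, 6.07 and 6.98 CPM in doxycycline cultures, with c3 highest in both (log2 fold change -0.23, adjusted p = 0.373). HLA-C was at 126, 150, 113 and 110 CPM and 145, 153, 106 and 143 CPM (log2 fold change 0.13, adjusted p = 0.358). B2M, the light chain shared by all class I molecules, was at 1123, 1315, 1178 and 1408 CPM and 1028, 1128, 1012 and 1332 CPM, lower in 4 of 4 pairs by a small amount (log2 fold change -0.16, adjusted p = 0.095; DESeq2 with the block, adjusted p = 0.00993). HLA genes are alike and differ between people, so reads can be assigned to the wrong one. Compared per length, B2M was at a median of 1334 TPM over the control cultures, IFITM3 at 153, HLA-C at 144, ISG15 at 49.6 and GBP2 at 4.06.

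Genes around the response were read from 6 lists with 87 genes, of which 65 were tested and 5 called (4 higher, 1 lower), beside 7.63% of all genes. Some of the tested genes that were not called had sums with as little as 8.78%, 14.3% or 31.1% of the reads implied by the authors' mean. Their levels here are not their full levels. None of the 10 interferon genes listed was tested. Of these, 9, IFNB1 among them, had 0 reads in all 8 libraries, which allows up to 0.126 CPM in the shallowest library at 3 reads, and IFNW1 had 1 read in all. Of 14 receptors and JAK-STAT genes, IFNLR1, the interferon lambda receptor chain, rose (log2 fold change 0.74, adjusted p = 0.0421). One of 14 tested further interferon-stimulated genes, the nuclear body protein SP110, rose (log2 fold change 0.37, adjusted p = 0.0451). CXCL10, a chemokine that interferon gamma induces, was below the filter and at most 0.203 CPM in any library. Of 16 tested further antigen presentation genes, HLA-E, a class I molecule that NK cells read, rose (log2 fold change 0.37, adjusted p = 0.0221) and ERAP1, which trims peptides in the endoplasmic reticulum, fell (log2 fold change -0.51, adjusted p = 0.00797). For NLRC5, the activator of class I genes, the sums held 8.78% of the reads implied by the authors' mean, so no level is given. None of 9 tested NF-kappaB response genes was called (smallest adjusted p = 0.114).

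Levels also differed between the origins. Of the 45 tested members, 20 (44.4%) differed between origins in the same edgeR fit, beside 39.4% of all genes. IFI44L averaged 4.48 CPM over both cultures of c3 and 23.0 CPM over those of c5, 5.14 times as much (adjusted p = 0.000319). Clone c3 was highest for SAMD9L (4.28 CPM against 1.07 to 1.27 CPM), SAMD9 (6.62 against 2.45 to 3.12 CPM), GBP3 (8.96 against 2.46 to 4.71 CPM) and HLA-B (17.9 against 6.81 to 9.30 CPM). GBP2 averaged 13 CPM in c3 to 19.0 CPM in c5 and was not called between origins (adjusted p = 0.114). Without c3, 10 members differed between the remaining origins, without c6 11, without c5 16 and without the polyclonal population 21. The share of all genes in these fits is not given, so these counts are not read as a result about the members. The summed level of 5 fibroblast markers, all measured, ran from 452 to 1648 CPM in control and 508 to 1481 CPM in doxycycline cultures and was highest in c3. COL1A1 carried that sum (1312 CPM over both cultures of c3), while DCN, LUM and PDGFRA were lowest in c3 and THY1 was about as high in c3 as in c5. The part of these markers in the differences was not tested.

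**Figure D4:**
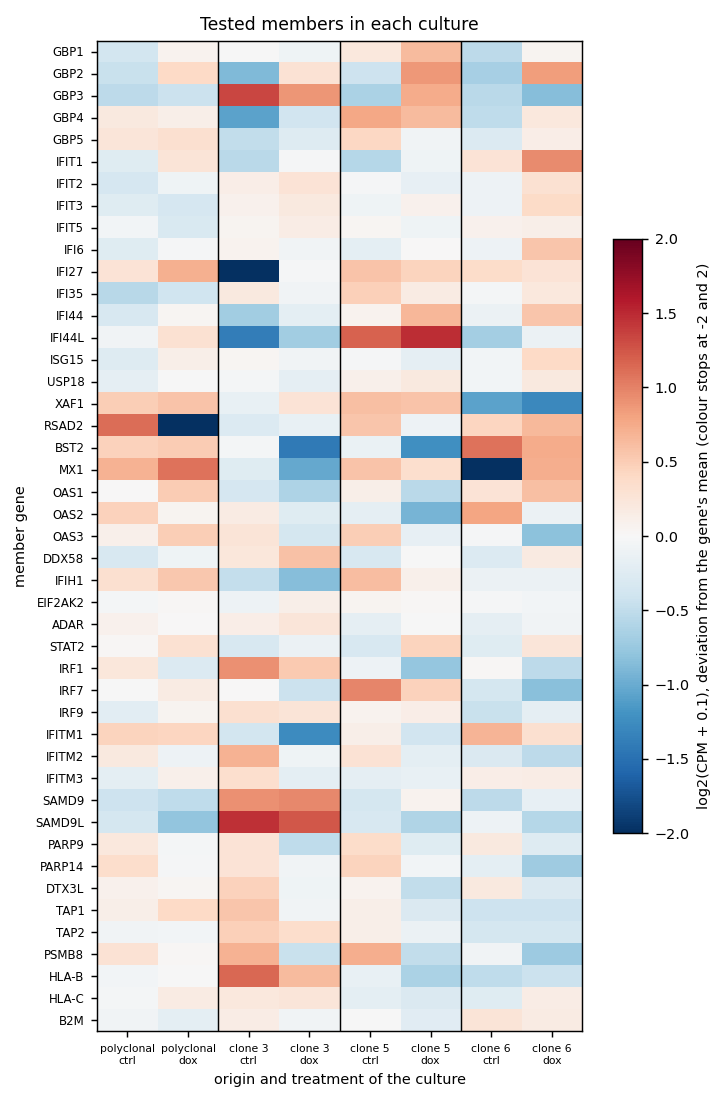
Rows are the 45 tested genes and columns the 8 cultures by origin and treatment (ctrl, control; dox, doxycycline); colour is log2(CPM + 0.1) minus the gene's mean, with the scale stopping at -2 and 2. GBP2 is red in all 4 doxycycline columns, while SAMD9, SAMD9L, GBP3 and HLA-B are reddest in c3 and IFI44L in c5.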

How the data were processed

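The authors sequenced stranded mRNA libraries and quantified them with Salmon on GRCh38 RefSeq transcripts. The deposited files give, per transcript, estimated counts and TPM, which the authors' Salmon run divided by effective length. The setting for strand is not given in the sources used here. The authors' deposited DESeq2 table (2.11.40.6) holds a mean signal of normalized counts, used here only to check matching, and their fold changes and p-values, which were not used.

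Transcripts were matched to symbols by RefSeq accession (115325 of 158867, 72.6%; 99.2% of curated and 50.3% of predicted ones), and estimated counts were summed per gene, keeping 89.9% to 91.1% of the reads. For 9 of the 50 genes the sum held under 80% of the reads that the authors' mean implies. Sums were rounded, filtered with filterByExpr by treatment, scaled by TMM and tested with edgeR 4.0.16 in R 4.3.3, with origin as a block. DESeq2 1.42.0 was an alternative, as were no block, DESeq2's size factors, no filter beyond 1 count, curated transcripts only, and leaving out each origin. Ratios within a pair had 0.5 reads added to both cultures. TPM was summed per gene for levels only. Scripts were tested on simulated data.

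Deviations of control and doxycycline cultures from the group means correlated at 0.406 to 0.590 within an origin and at -0.395 to 0.179 between origins, and cultures of 1 clone are the same cells. The members and lists were chosen with earlier results of these data known. Values in every library are given for GBP2, called members, tested guanylate-binding genes and 16 representatives, other members are given by range, and further genes are named where called, with IFNB1, CXCL10 and NLRC5. Some genes that this rule names are not reported here.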

Additional observations from a re-analysis of the deposited data

Results flagged for a closer look

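Among 52 groups of 4 cultures (each named gene in each treatment), 4 held a culture far from the other 3, where chance alone would give about 1 in 20, or 2.6. In the control group the c3 culture stood above the others for GBP3 (10.4 CPM against 2.58 to 2.76 CPM) and for DDX58 (12.7 CPM against 8.60 to 8.93 CPM). In the doxycycline group the c6 culture stood above the others for IFI6 (29.2 CPM against 18.9 to 19.9 CPM) and below them for PARP14 (14.3 CPM against 22.4 to 23.1 CPM).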

How the results depend on the processing

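Of the 8 called members, 8 were called again with DESeq2's size factors, with no filter beyond 1 count and by DESeq2 with the replicate block. Without the replicate block edgeR called 0 members (0 higher, 0 lower), 0 further genes of the 6 lists and 1 of all genes, and gave GBP2 1.22 and FEZF1 -0.80 on the log2 scale (adjusted p = 0.125 and 0.29). DESeq2 without the replicate block called 2 members (1 higher, 1 lower), 1 further gene and 206 of all genes. With the replicate block DESeq2 called 6 members lower, 8 further genes and 1885 of all genes, against 3, 5 and 1221 in edgeR. With no filter beyond 1 count 5 members were called lower, and 1472 of all genes were called in either direction. DHX58, whose sums held 13.1% of the reads implied by the authors' mean, was among the 5. All its reads, 38, were in the polyclonal control culture, so its call rests on 1 library. With curated transcripts only, 3 members (2 higher, 1 lower), 3 further genes and 493 of all genes were called.

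Leaving out 1 origin at a time gave 1 to 6 called members (1 to 3 higher, 0 to 4 lower), 1 to 2 further genes and 175 to 699 of all genes. It also gave 10 to 21 members differing between origins, for which the share of all genes is not given. The only member called in each of the 4 was GBP2. Signs turned for 4 genes that no fit called: without the replicate block OAS1 was at 0.066 in edgeR and 0.057 in DESeq2, and leaving out an origin put OAS1 between -0.21 and 0.18, GBP5 between -0.068 and 0.22, GBP3 between -0.24 and 0.42 and MX1 between -0.18 and 0.83. GBP2 stayed between 1.11 and 1.33 over 10 alternatives. With 4 pairs, small changes of low genes were not detectable, as the interval of -0.87 to 1.76 for MX1 shows.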

Other observations

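Clone c3 also stood apart in NF-kappaB response genes, which were picked here after their values were seen. ICAM1, an adhesion molecule, was at 2.94, 41.5, 1.60 and 4.83 CPM in control and 3.04, 29.7, 1.26 and 3.996 CPM in doxycycline cultures (polyclonal, c3, c5, c6). The chemokine CCL2 was at 0.759, 9.17, 0.943 and 1.13 CPM and 0.982, 10.3, 0.797 and 1.51 CPM, and CXCL8 at 1.16, 7.43, 1.89 and 1.93 CPM and 0.767, 7.76, 2.56 and 1.09 CPM. Both cultures of c3 lay above all 6 other cultures for each of the 3 genes. GBP2 was lowest in c3 in both groups.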
